A study of Drosophila melanogaster with 4 samples.

Results

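Transcripts of 6 genes that are widely used as marks of neurons were followed in the cone cells (CCs) and photoreceptors (PRs) of the Drosophila retina: elav, fne and Rbp9, which encode the Elav family of RNA-binding proteins, and futsch, Ank2 and tau, which encode proteins of the neuronal cytoskeleton. The genes were chosen by symbol, and all 6 were found among the 14935 genes of the deposited table. CCs are non-neuronal cells that secrete the lens and ensheath the PRs, which are the sensory neurons of the eye, so the comparison asks how much of each neuronal transcript the non-neuronal cells carry. Sorted cells from the pooled eyes of 45 to 75 animals gave 1 library for each of 4 conditions: CCs of larvae, pupae and adults, and PRs of adults. Larvae were at the wandering stage of the last instar, pupae were taken 25 h after puparium formation, and adults were 1 to 2 days old.

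Larval and pupal CCs were the GFP-positive cells of sev-; prosPSG-GFP; TM2/TM6B animals. The sev- background removes the R7 photoreceptor, in which the prosPSG enhancer is also active. Adult CCs came from yw67;sp/CyO;TM2/TM6B flies and were sorted with an antibody against Fas3, an adhesion molecule that marks CCs, together with the antibody 22C10, which marks PRs and the interommatidial bristle. Adult PRs were the RFP-positive, GFP-negative cells of adult prosPSG-GFP retinas, a gate that leaves out R7 cells in which the GFP is strong enough to be seen. The study describes this GFP as weak in R7 cells. The R7 opsin genes Rh3 and Rh4 still stood at log2 levels of 10.78 and 11.72 in the PR library. The antigen of 22C10 is the Futsch protein, so the gate used the product of 1 of the 6 genes: the futsch value of adult CCs is given as a description and supports nothing here. Larval and pupal CCs were not sorted with that antibody. For the PR library the methods give the RFP gate, while a sort of adult PRs by 22C10 is also shown in the study, so the PR level of futsch is read with the same care. Larval and pupal CCs differ in stage, and adult CCs and PRs differ in cell type, genotype and sorting. Larval and pupal CCs differ from adult PRs in cell type, stage, genotype and sorting together. Adult CCs differ from pupal CCs in stage, genotype and sorting together. Where several of these differ at once, they cannot be told apart.

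Elav proteins bind AU-rich and U-rich stretches of RNA in the nucleus and the cytoplasm and direct alternative splicing and the choice of the 3′ end of neuronal transcripts. In flies, elav is the founding member, its protein is the standard mark of differentiated neurons, fne ("found in neurons") encodes a close relative, and Rbp9 acts in neurons and in the female germ line. Futsch is the fly homolog of the vertebrate microtubule-associated protein MAP1B and is needed for axons and for synaptic microtubule loops, Tau binds and stabilizes microtubules, and Ank2 is an ankyrin that links membrane proteins to the spectrin skeleton and that organizes microtubules in axons and at synapses. The values below count RNA of whole genes, so they hold no information on protein, splice form or 3′ end.

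Levels are TMM-normalized read counts as the authors deposited them in log2 form. On the linear scale, 1 unit is 1 normalized read, and whatever came to 1 unit or less stands at 0 in the table. A long gene collects more reads at the same number of transcripts, so different genes were set side by side only per kb of coding length. Genes above 0 numbered 8997 to 12649 per library, and steps between low values gave an estimated 1.60 to 3.81 M reads on genes per library, with a search that could not see the finer steps of a much greater depth. The study's methods state a greater depth, so these estimates may be too low. There were no replicates, hence no p-values and no errors, and calls rest on the size of a difference alone. The rule asked for a difference of 2 or more in log2(value + 4) (4-fold) and for at least 32 units in whichever library was higher, and "higher" and "lower" below are calls of this rule. Cell identity was checked against marker lists. All 18 photoreceptor markers were lower in each CC library than in PRs by this rule, and their summed level in larval, pupal and adult CCs was 0.123%, 0.319% and 0.524% of that in PRs. Of these 18, larval CCs had 9 listed at 0 and pupal CCs 5, the major opsin gene ninaE in both, and adult CCs had 1 (Rh5). Of 7 cone cell and lens markers, adult CCs had 6 higher than PRs and 0 lower. Pupal CCs had 3 higher and 1 lower, and larval CCs 2 higher and 1 lower. Over all genes 9.31%, 9.66% and 8.26% were higher in adult, pupal and larval CCs, and 4.91%, 5.48% and 8.46% lower. The markers fixed for CCs thus mark the young libraries only in part. The marker lower in pupal and larval CCs was retinin, a corneal lens gene. One marker that was higher in all 3 CC libraries, Fas3, encodes the antigen by which adult CCs were sorted.

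**Figure D1:**
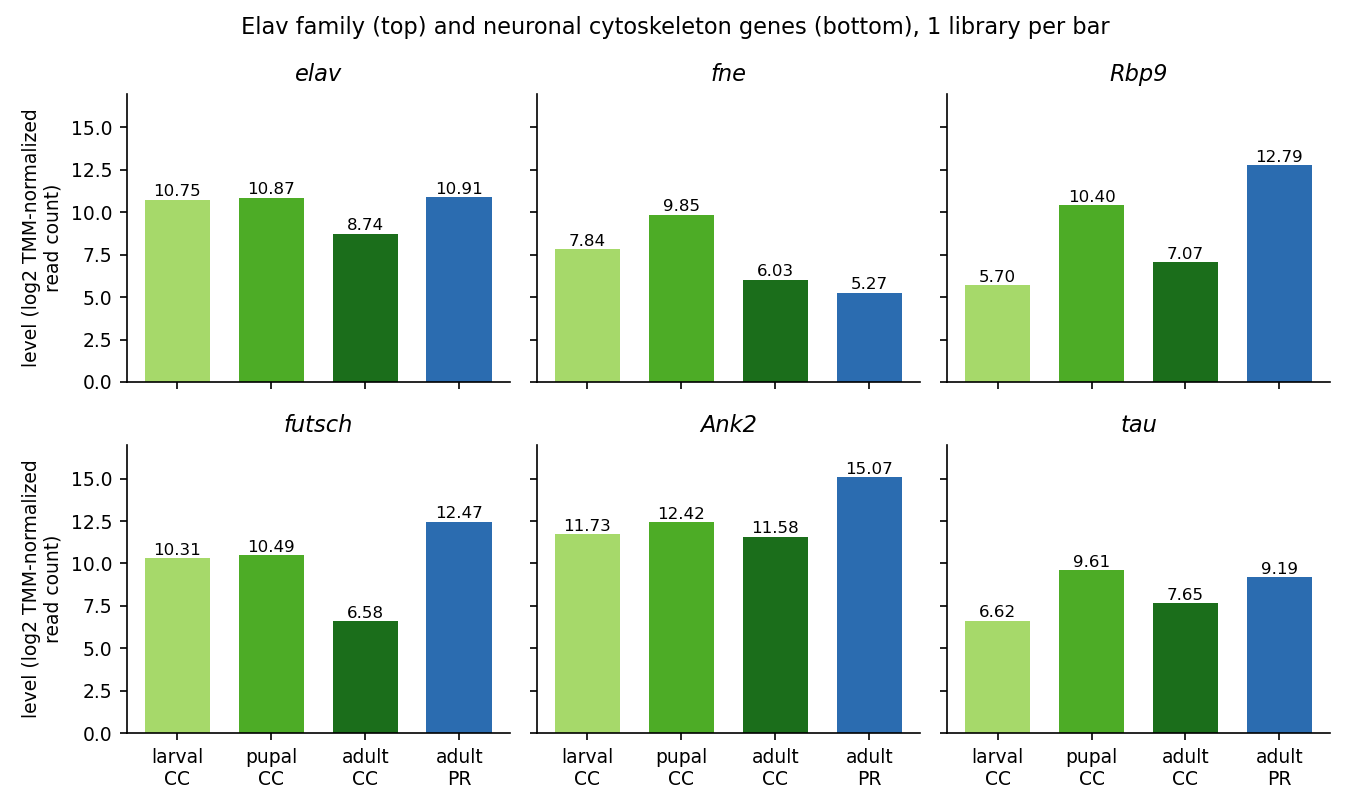
Level of each of the 6 genes in the 4 libraries, 1 library per bar, as the log2 TMM-normalized read count on the vertical axis, which starts at 0. The bars of elav stand level at 10.75, 10.87 and 10.91 in larval CCs, pupal CCs and PRs and drop to 8.74 in adult CCs. The genes fne and tau are highest in pupal CCs (tau stands level with PRs with the median ratio set to 0), and Rbp9, futsch and Ank2 are highest in PRs.

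Transcripts of elav (FBgn0260400, X chromosome) were about as abundant in the larval and pupal CC libraries as in that of adult PRs, the only neurons sampled. The log2 level of elav was 10.75 for larval, 10.87 for pupal and 8.74 for adult CCs and 10.91 for PRs, which is 1722, 1872, 429 and 1918 units. Adult CCs stood apart from the other 3 libraries, which lay within 0.16 of each other on the log2 scale. By rank, elav was the 89th most abundant transcript of larval CCs, the 109th of pupal CCs, the 187th of PRs and the 1327th of adult CCs. Larval CCs held 89.8% and pupal CCs 97.6% of the PR level, differences of -0.16 and -0.03 that did not pass the rule and that changed sign when the libraries were scaled to equal totals, to 0.69 and 0.50. Adult CCs held 22.4% of the PR level, and this difference of -2.15 passed the rule narrowly.

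The gene fne (FBgn0086675, X chromosome) was the 1 gene of the 6 that was higher in a CC library than in PRs. Its log2 level was 7.84 for larval, 9.85 for pupal and 6.03 for adult CCs and 5.27 for PRs, which is 229, 922, 65.2 and 38.5 units. Every CC library was above the PR library, which with an estimated 23.2 reads of fne lay just above the floor of 32 units. Larval CCs exceeded PRs by 2.45 and pupal CCs by 4.45 on the log2(value + 4) scale, both past the rule. In pupal CCs the linear level was 2395% of that in PRs, and only 221 of 9791 genes at 8 units or more in either library had a larger difference. Adult CCs differed from PRs by 0.70, not past the rule and next to the median of 0.67 over all genes at 8 units or more.

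Rbp9 (FBgn0010263, chromosome arm 2L) was the Elav family gene with the highest level per kb of coding length in PRs. Levels of Rbp9 were 5.70 for larval, 10.40 for pupal and 7.07 for adult CCs and 12.79 for PRs on the log2 scale, which is 52.0, 1352, 135 and 7073 units. Rbp9 was the 41st most abundant transcript of PRs and the 4220th of larval CCs, and its range of 7.09 over the 4 libraries was the widest of the 6 genes. All 3 CC libraries were below PRs past the rule, by -6.98, -2.38 and -5.67 in the larval, pupal and adult libraries. In linear terms CCs held 0.736%, 19.1% and 1.90% of the PR level. The pupal difference was the 1 of these 3 that depended on the scaling: it was -1.85, short of the rule, with equal library totals.

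Since the 3 Elav proteins are close relatives, their transcripts were also expressed as shares of the family sum within each library, which do not depend on how libraries are scaled. Per kb of coding length, elav made up 83.7% of the family in larval CCs, fne 14.5% and Rbp9 1.79%. In pupal CCs the 3 genes were closest to each other, at 46.5%, 29.8% and 23.7% in the same order. Adult CCs returned to a family led by elav, with 70.4%, 13.9% and 15.6%. Adult PRs were led by Rbp9 with 71.7%, followed by elav with 27.5% and fne with 0.720%. The ratio of Rbp9 to elav, undivided by length, went from 0.0302 in larval to 0.722 in pupal and 0.314 in adult CCs, against 3.69 in PRs. Thus elav led the family in every CC library and Rbp9 led it in PRs. Coding length leaves out the untranslated ends. Per kb of exonic length the share of Rbp9 was 38.2% for pupal and 26.3% for adult CCs, against 39.8% and 63.0% for elav. On that scale elav still led in all 3 CC libraries, but narrowly in pupal CCs, with no spread to judge the gap by.

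**Figure D2:**
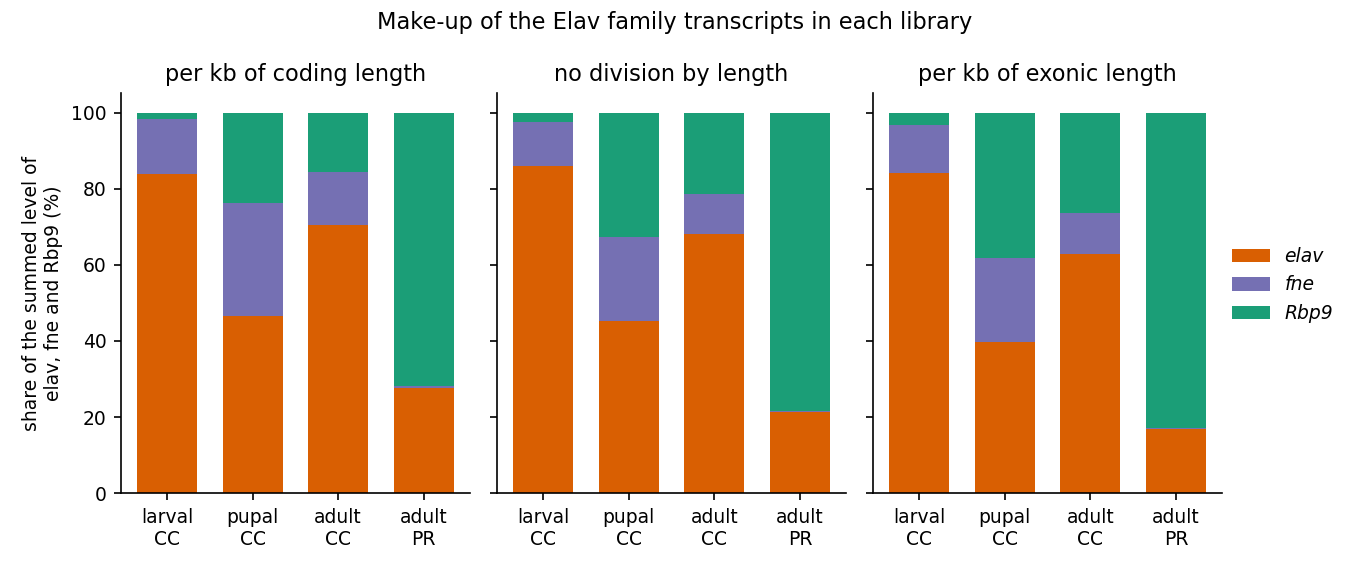
Share of elav, fne and Rbp9 in their summed level (vertical axis, percent) in each library, per kb of coding length, with no division by length, and per kb of exonic length, 1 library per bar. Under all 3 ways of counting elav is the largest part of every CC bar and Rbp9 the largest part of the PR bar, where fne is between 0.380% and 0.720%. Per kb of exonic length the lead of elav in pupal CCs is narrow, at 39.8% against 38.2% for Rbp9.

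The family sum itself, undivided by length, was 2003 units for larval, 4146 for pupal and 629 for adult CCs and 9030 for PRs. It was lowest in adult CCs.

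Among the cytoskeletal genes, futsch (FBgn0259108, X chromosome) was abundant in the young CCs that had not been sorted with its antibody. On the log2 scale it read 10.31 for larval, 10.49 for pupal and 6.58 for adult CCs, against 12.47 for PRs, which is 1269, 1438, 95.8 and 5671 units. Larval and pupal CCs were close to each other and lay below PRs, at 22.4% and 25.4% of the PR level. The larval difference of -2.16 was past the rule and became -1.32 with equal library totals. The pupal difference was -1.98, short of the rule, and passed it at -2.41 with the median ratio of each library to the mean library set to 0. Adult CCs, sorted against the Futsch antigen, held 1.69%, a difference of -5.83.

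Ank2 (FBgn0261788, chromosome arm 3L) was below the PR level past the rule in every CC library. Ank2 stood at 11.73 for larval, 12.42 for pupal and 11.58 for adult CCs and at 15.07 for PRs on the log2 scale, which is 3404, 5488, 3067 and 34339 units. CCs nevertheless held many reads of this long gene, which was the 27th, 20th and 141st most abundant transcript of larval, pupal and adult CCs and the 9th of PRs. The differences from PRs were -3.33, -2.64 and -3.48, and these calls remained under both other scalings. The 3 CC levels lay within 0.84 of each other on the log2 scale, the narrowest CC range of the 6 genes.

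The transcript of tau (FBgn0051057, chromosome arm 3R) read 6.62 for larval, 9.61 for pupal and 7.65 for adult CCs on the log2 scale, against 9.19 for PRs, which is 98.5, 782, 201 and 583 units. Pupal CCs and PRs were close, while larval and adult CCs were below both. Larval CCs held 16.9% of the PR level, a difference of -2.52 that was past the rule but fell short of it, at -1.70, with equal library totals. Pupal CCs held 134%, a difference of 0.42 that was -0.01 with the median ratio set to 0. Adult CCs held 34.5%, a difference of -1.52 that did not pass the rule and reached -2.01 with the median ratio set to 0.

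In adult CCs 4 of the 6 genes were thus lower than in PRs (elav, Rbp9, futsch and Ank2), 0 were higher, and fne and tau fell short of the rule. Over all 14935 genes 4.91% were lower and 9.31% higher in this comparison, 14.2% together. The median difference of the 6 genes was -2.82, against 0.67 over all genes, and without futsch, whose protein was gated on, 3 of 5 were lower with a median of -2.15. In larval CCs 4 of the 6 were lower than in PRs (Rbp9, futsch, Ank2 and tau) and fne was higher, where 8.46% of all genes were lower and 8.26% higher, 16.7% together. In pupal CCs 2 were lower (Rbp9 and Ank2) and fne was higher, where 5.48% of all genes were lower and 9.66% higher, 15.1% together. The 3 comparisons share the PR library, so their values are not independent of each other.

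**Figure D3:**
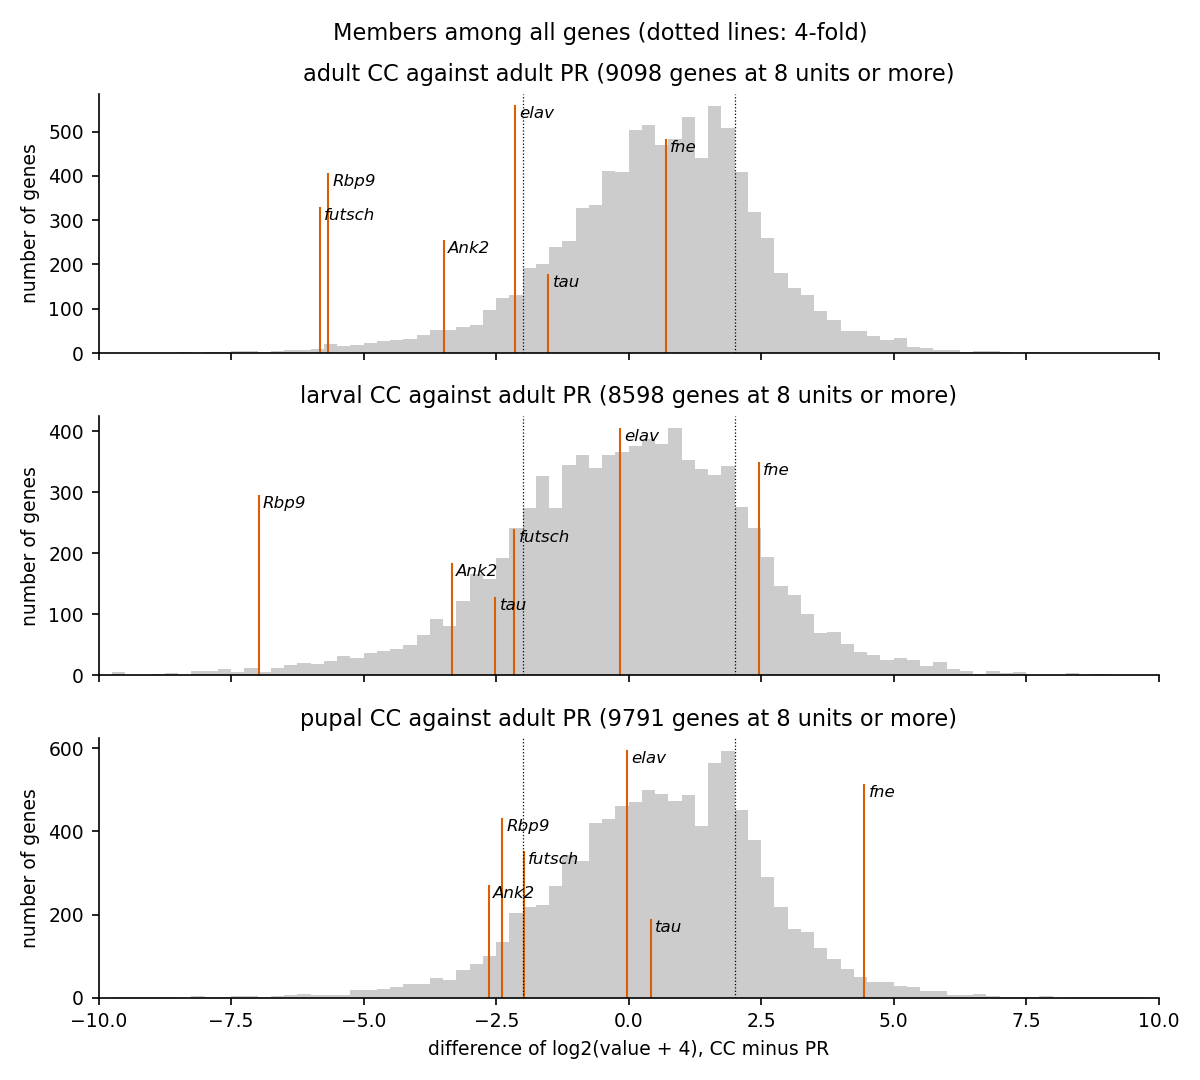
Histograms of the difference of log2(value + 4) between each CC library and adult PRs over the genes at 8 units or more in either library (horizontal axis, log2, negative where lower in CCs; vertical axis, number of genes), with the 6 genes as vertical lines whose heights only separate their names and dotted lines at 4-fold. In adult CCs futsch at -5.83 and Rbp9 at -5.67 lie in the far left tail, and in pupal CCs fne at 4.45 lies in the right tail. The lines of elav in larval and pupal CCs and of tau in pupal CCs lie near 0, and their side of 0 depends on the scaling.

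Another scaling moves all genes together, by up to 0.78 at the median in the comparisons with PRs. Relative to the median of all genes, the adult CC differences were -2.82 for elav, 0.03 for fne, -6.34 for Rbp9, -6.50 for futsch, -4.15 for Ank2 and -2.18 for tau. Put this way, adult CCs were below PRs for every gene but fne. In pupal CCs the same quantity was -0.71 for elav, 3.77 for fne, -3.06 for Rbp9, -2.65 for futsch, -3.32 for Ank2 and -0.25 for tau. Among the 9098 genes at 8 units or more in adult CCs or PRs, 48 had a difference below that of futsch, 54 below that of Rbp9, 322 below that of Ank2, 753 below that of elav, 1223 below that of tau and 4602 below that of fne.

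Within the CC series, larval and pupal CCs shared their sort and genotype and differ by design in stage. They are single libraries whose sums over marker lists of other cells differ as well. The sums went from 1384 to 130 units for neuroblast markers and from 442 to 1362 for transmitter genes of other neurons. For hemocyte markers they went from 8.36 to 374. The study reads dpn, of the neuroblast list, as expressed in CCs of both stages, and the part of other cells was not tested. From larval to pupal CCs, 2 of the 6 genes were higher and 0 lower, where 4.64% of all genes were higher and 1.07% lower, 5.71% together. Rbp9 was higher by 4.60, a 25.97-fold difference in linear units, and only 53 of 9297 genes had a larger difference. The gene tau was higher by 2.94, or 7.94-fold. The difference of fne was 1.99, a hair short of the rule, which it passed at 2.01 with an added constant of 1 unit, and that of Ank2 was 0.69. Both elav and futsch had nearly the same level at the 2 stages, with differences of 0.12 and 0.18 that turned to -0.18 and -0.12 with equal library totals and to -0.19 and -0.13 with the median ratio set to 0. Both were already high in larval CCs.

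Adult CCs were below pupal CCs for all 6 genes, 4 of them past the rule, where 6.11% of all genes were lower and 6.47% higher, 12.6% together. Without futsch, the target of the antibody that gated adult CCs, 3 of the other 5 passed, with a median of -2.12. That gate sorted whole cells by a mark of PRs and the bristle, so it can bear on the other 5 as well. The difference was -2.12 for elav, -3.74 for fne, -3.29 for Rbp9, -3.85 for futsch, -0.84 for Ank2 and -1.94 for tau. The whole Elav family passed the rule, and of the cytoskeletal genes futsch alone did. With the median ratio set to 0, tau passed it as well, and with equal library totals it did so at -2.75. Stage, genotype and sorting all differ between these libraries, so they cannot be told apart here.

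Ratios within a library do not depend on scaling. The ratio of futsch to tau, undivided by length, was 12.9 for larval, 1.84 for pupal and 0.475 for adult CCs and 9.72 for PRs. The ratio of Ank2 to futsch was 2.68, 3.82, 32.02 and 6.05 in the same order, and both adult CC ratios carry the futsch gate. Per kb of coding length, the 6 genes were ordered elav, fne, Ank2, futsch, tau and Rbp9 in larval CCs, from 1188 to 25.4 units per kb, and elav, fne, Rbp9, tau, Ank2 and futsch in pupal CCs, from 1292 to 87.2 units per kb. In adult CCs the order was elav, tau, Ank2, Rbp9, fne and futsch, from 296 to 5.81 units per kb. In PRs it was Rbp9, elav, Ank2, futsch, tau and fne, from 3447 to 34.6 units per kb. So elav headed every CC library and Rbp9 the PR library on this scale, but per kb of exonic length Ank2 headed adult CCs, at 65.3 units per kb against 40.02 for elav. Neighbours in these orders have no spread to be judged by, and those closer than 1.5-fold include Ank2 and futsch in larval CCs and tau, Ank2, Rbp9 and fne in adult CCs.

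The 6 genes were set against the markers of the PR fate itself. The level in CCs as a percent of that in PRs was 0.00229%, 0.0503% and 0.564% at the median of the 18 photoreceptor markers in larval, pupal and adult CCs. The highest marker was inaC, a protein kinase C of phototransduction, at 1.29% at the larval stage, eys, a secreted rhabdomere spacer protein, at 16.3% at the pupal stage, and norpA, the phospholipase C of phototransduction, at 3.45% in adult CCs. In larval CCs 5 of the 6 genes lay above the highest photoreceptor marker and Rbp9, at 0.736%, lay below it. In pupal CCs fne, tau, elav, futsch and Rbp9 lay above it, and Ank2, at 15.98%, lay just below. In adult CCs fne, tau, elav and Ank2 lay above it, while Rbp9 at 1.90% and futsch at 1.69% lay within the range of the photoreceptor markers. Opsin and phototransduction genes come on late in pupal life in PRs, so their absence at earlier stages does not gauge young PRs. Chaoptin (chp), a PR surface protein present from the larval eye disc on, was at log2 levels of 0.92, 0.06 and 0.82 in larval, pupal and adult CCs and 14.98 in PRs. Other markers of the 18 were higher: 3 stood at 32 units or more in larval CCs and 4 in pupal CCs. In larval and pupal CCs norpA was at 8.73 and 8.92, inaC at 6.03 and 6.39 and eys at 5.56 and 9.45, and ninaC was at 7.04 in pupal CCs. So chp alone does not gauge young PRs, whose part was not tested.

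**Figure D4:**
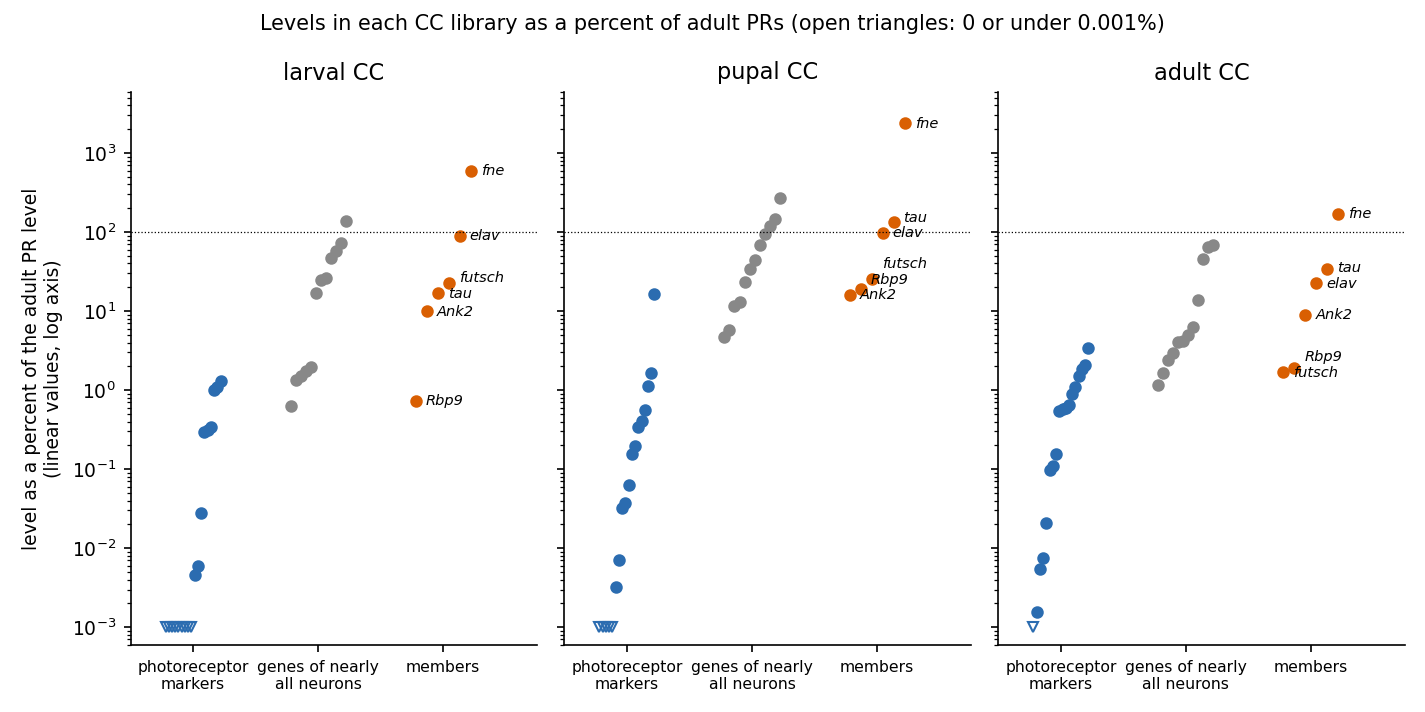
Level in each CC library as a percent of the adult PR level (vertical axis, log scale) for photoreceptor markers, for genes of nearly all neurons and for the 6 genes, at 32 units or more in PRs, 1 point per gene and open triangles at 0 or under 0.001%. In larval and pupal CCs most of the 6 genes sit among or above the genes of nearly all neurons, and in adult CCs Rbp9 at 1.90% and futsch at 1.69% fall among the photoreceptor markers. Points near the line at 100% can cross it under another scaling.

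Genes that nearly all neurons use were described in the same way. In adult CCs 9 of 13 such genes were lower than in PRs and 0 higher, with a median difference of -4.28. Over all genes 4.91% were lower and 9.31% higher in this comparison. The synaptic vesicle SNARE nSyb was at 7.76, 9.70 and 7.39 in larval, pupal and adult CCs and 13.80 in PRs. The transcription factor onecut was at 8.96, 9.97 and 5.62 against 11.53, and the presynaptic calcium channel cac at 5.39, 9.52 and 6.52 against 11.61. Snap25, a SNARE of the plasma membrane, was at 2.58, 5.45 and 4.51 against 9.87. In pupal CCs 5 of the 13 were lower than in PRs and nerfin-1 was higher, where 5.48% of all genes were lower and 9.66% higher. From larval to pupal CCs 4 were higher (Syt1, cac, para and Snap25) and 1 was lower (nerfin-1), where 4.64% of all genes were higher and 1.07% lower. From pupal to adult CCs 7 were lower and 0 higher, with a median of -2.28, where 6.11% of all genes were lower and 6.47% higher. The zinc-finger gene nerfin-1, which acts in young neurons, was at 10.43, 7.66 and 3.86 in larval, pupal and adult CCs and listed at 0 in PRs. As a percent of the PR level, the 12 of these genes at 32 units or more in PRs had medians of 20.7%, 39.4% and 4.64% over the larval, pupal and adult libraries, so that CCs were nearest to PRs at the pupal stage. In adult CCs fne at 169%, tau at 34.5%, elav at 22.4% and Ank2 at 8.93% were above that median. Rbp9 at 1.90% and futsch, the gated gene, at 1.69% were below it.

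The sorted cells were also checked for other cells that could carry these transcripts. In larval CCs all 5 neuroblast markers (dpn, wor, ase, mira and insc) were at 32 units or more. They summed to 1384 units, against 130, 76.4 and 23.4 in pupal CCs, adult CCs and PRs. From these data the study reads dpn as expressed in larval and pupal CCs themselves, so this list need not count other cells alone. In pupal CCs all 6 transmitter genes of neurons other than PRs were at 32 units or more and summed to 1362 units, against 442 in larval CCs, 90.3 in adult CCs and 1082 in PRs. Among the CC libraries this summed level was highest at the pupal stage, as were the levels of fne, Rbp9, Ank2 and tau under each scaling, while the larval and pupal order of elav and futsch depended on it. VGlut, the vesicular glutamate transporter, was at 6.23, 8.98 and 2.90 in larval, pupal and adult CCs and 7.07 in PRs, and VGAT, the vesicular GABA transporter, was at 6.49 and 7.33 in larval and pupal CCs and listed at 0 in adult CCs and PRs. Bristle markers, of interest because 22C10 also stains the bristle, summed to 334, 304, 89.7 and 44.7 units, with 1, 4, 0 and 1 of 7 at 32 units or more. One of the 7, ase, is also a neuroblast marker, and without it the sums were 66.5, 244, 78.6 and 44.7 units, with 0, 3, 0 and 1 of 6 at 32 units or more. Glial markers summed to 190, 310, 300 and 382 units and hemocyte markers to 8.36, 374, 229 and 17.98 units. Of the glial list, the study also shows gcm and repo in developing CCs by staining. It further reports lower PR activity after knockdown of Eaat1 in CCs, so these genes are not marks of other cells alone. Muscle markers summed to 837, 1617, 6351 and 199 units, of which sls alone made up 777, 1268, 5924 and 164. Cell cycle genes summed to 2319, 473, 676 and 125 units, of which dap made up 278, 40.5, 643 and 91.3. In adult CCs PCNA, CycA, CycB and stg each stood at 12.6 units or less. Pigment cell markers summed to 82.7, 288, 95287 and 11901 units, of which Pdh, a retinol dehydrogenase gene, made up 94871 in adult CCs and 11406 in PRs. The part of these cells in the levels of the 6 genes was not tested, and in bulk libraries fewer cells of a type and less RNA per cell cannot be told apart.

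Of 11 other genes for RNA-binding proteins known from neurons, 1 was lower and 0 higher in adult CCs, with a median of -1.002. Where 4.91% of all genes were lower, a single call in 11 is no result about this list, and with equal library totals or the median ratio set to 0 it had 2. The gene past the rule was mbl, a splicing factor of the muscleblind family, at 9.43, 9.79 and 10.79 in larval, pupal and adult CCs and 14.71 in PRs. The translational repressor msi was at 9.75, 9.61 and 10.09 against 11.81, the splicing factor Rbfox1 at 7.65, 8.79 and 6.61 against 8.01, and shep at 8.67, 10.68 and 9.30 against 10.62.

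Genes whose transcripts Elav family proteins are known to bind or regulate in flies were taken as a list of 6 (arm, ewg, Nrg, Dscam1, emc and bam). In adult CCs 1 was higher than in PRs, 0 were lower, and 5 fell short of the rule, bam among them, which was under 1.27 units in all 4 libraries. Where 9.31% of all genes were higher, a single call in 6 is no result about this list. Nrg, a cell adhesion molecule of the L1 family that binds ankyrin and whose neuronal exon is an Elav target, was at 9.97, 9.94 and 10.92 in larval, pupal and adult CCs and 7.63 in PRs. Its difference between adult CCs and PRs was 3.26, opposite in sign to the -3.48 of Ank2. In pupal CCs 3 of the 6 (Nrg, arm and Dscam1) were higher than in PRs, where 9.66% of all genes were higher. These gene levels do not show which exons were used.

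Regulators of Futsch and Tau included a pair with low levels in adult CCs alone. In adult CCs 2 of 9 measured were lower than in PRs, where 4.91% of all genes were lower. The same 2 were lower in adult than in pupal CCs, where 6.11% of all genes were lower. The medians over the 9 were -0.21 and -0.32 in the same order. Cdk5alpha, the activating subunit of the Cdk5 kinase, which phosphorylates Tau, was at 7.85, 9.39 and 3.47 in larval, pupal and adult CCs and 9.70 in PRs. The ubiquitin ligase gene hiw, which restrains synaptic growth, was at 9.34, 9.56 and 5.60 against 9.34. Both thus stood near the PR level in pupal CCs and fell by 5.48 and 3.86 from pupal to adult CCs. Fmr1, which represses futsch translation, was at 9.38, 10.07 and 8.49 against 7.10, higher than in PRs past the rule in larval and pupal CCs and not in adult CCs, where the difference was 1.37. TBPH, the fly TDP-43 that binds futsch RNA, was at 8.59, 8.50 and 8.18 against 7.32 and passed the rule in none of the comparisons.

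Of 14 other microtubule-associated genes, 1 was lower in adult CCs than the PR level and 0 were higher, with a median of 0.08 that turned to -0.21 with equal library totals. Beside the 14.2% of all genes past the rule, 4.91% of them lower, this is no result about the list. It was DCX-EMAP, a doublecortin-domain gene, at 1.84, 3.53 and 4.16 in larval, pupal and adult CCs and 7.66 in PRs. The spectraplakin gene shot was at 10.74, 11.10 and 12.32 against 13.75, lower than in PRs past the rule in larval and pupal CCs only. Of 11 kinesin, dynein and adaptor genes, unc-104, the kinesin of synaptic vesicle precursors, was the 1 past the rule, at 8.75, 10.25 and 8.19 against 11.70, and 0 were higher. Beside the 4.91% of all genes that were lower in adult CCs, 1 call in 11 is no result about that list either. The course of unc-104 over the CC libraries, highest in pupal CCs and below PRs throughout, was that of Rbp9 and Ank2 as well.

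Of 10 tubulin genes, adult CCs had 1 higher than PRs and 0 lower, where 9.31% of all genes were higher, and none passed with equal library totals or with the median ratio set to 0. It was gammaTub23C, at 7.27, 6.15 and 6.55 in larval, pupal and adult CCs and 4.32 in PRs. The major beta tubulin betaTub56D was at 11.99, 11.81 and 9.47 against 8.57, above PRs past the rule in larval and pupal CCs. Another beta tubulin, betaTub97EF, went the other way, at 4.27, 4.56 and 6.59 against 7.28, with differences of -2.78 and -2.53 in larval and pupal CCs that were lower by the rule. From pupal to adult CCs 3 tubulins were lower (alphaTub84D, betaTub56D and betaTub60D) and 0 higher, with a median of -1.21, where 6.11% of all genes were lower. Of the 6 spectrin, ankyrin and adducin genes and ankyrin partners other than Ank2, adult CCs had 1 higher than PRs (Nrg, above) and 0 lower, with a median of 0.26. Beside the 9.31% of all genes that were higher, this is no result about the list. The second ankyrin gene, Ank, was at 9.23, 9.06 and 10.47 against 10.64, within 4-fold of PRs in every CC library, where Ank2 was in none. Its partner beta-Spec was at 10.85, 10.82 and 9.501 against 8.61.

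**Figure D5:**
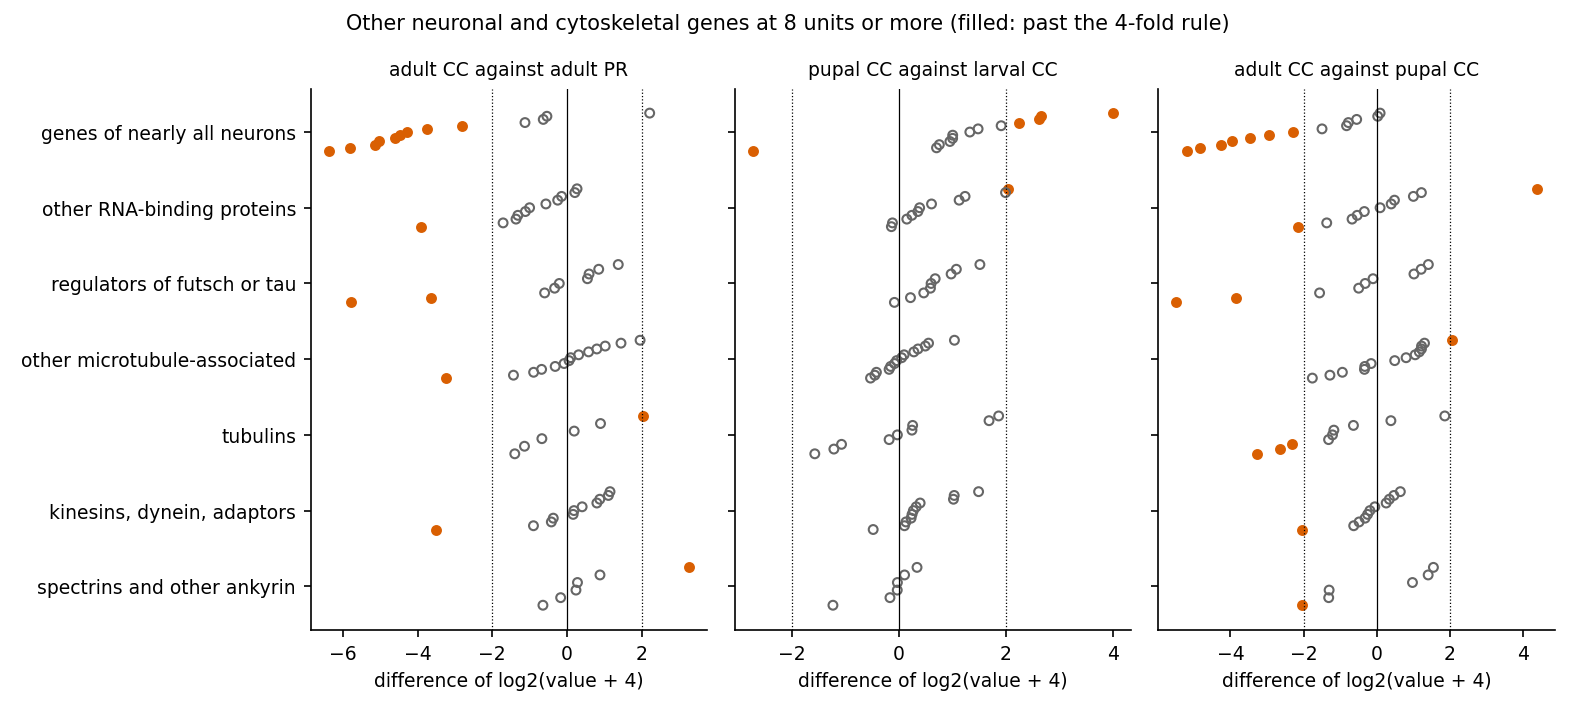
Difference of log2(value + 4) (horizontal axis) for the genes of 7 lists that were at 8 units or more in either library, 1 point per gene, in 3 comparisons, filled where past the rule. In the adult CC and PR comparison filled points on the left come mainly from the genes of nearly all neurons, 9 of 13, and the other lists hold 0 to 2 each. In the step from pupal to adult CCs 7 of those 13 genes and 3 of the 10 tubulins are filled on the left.

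Genes known to hold retinal cells to a non-neuronal fate, or to release them from it, were measured in the same libraries. The repressor gene ttk, whose protein blocks neuronal differentiation in CCs, was at 9.63, 9.60 and 11.18 in larval, pupal and adult CCs and 9.65 in PRs. The Ets repressor gene aop was at 10.32, 10.19 and 10.11 against 8.05. It was the 1 of 5 such genes that adult CCs held at a higher level than PRs, with 0 lower. That call was lost with equal library totals and with the median ratio set to 0. Where 9.31% of all genes were higher, a single call in 5 is no result about this list. The ubiquitin ligase gene sina, which acts in Ttk breakdown, was at 6.96, 7.12 and 8.81 against 9.61, lower by 2.61 and 2.46 in larval and pupal CCs, and ebi at 8.14, 7.69 and 7.82 against 6.998. The adaptor gene phyl, which brings Sina to Ttk, was at 7.68, 8.26 and 2.21 against 0.73, higher than in PRs in larval and pupal CCs. The difference of ttk between adult and pupal CCs was 1.58 and did not pass the rule.

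The genes with the profiles most like each of the 6 were taken by the root mean square distance of log2(value + 4) levels centred on their own mean over the 4 libraries, among 7462 genes at 32 units or more in at least 1 library. For elav these were SmG, rho and CG33116, at 0.07, 0.07 and 0.16. For fne they were CG34362, Con and CG34340, at 0.15, 0.18 and 0.18. Rbp9 had no gene within 0.25, and its nearest were eys, SK and cac, at 0.30, 0.31 and 0.34. For futsch they were nrv1, onecut and awd, at 0.17, 0.29 and 0.41. For Ank2 they were CG8607, CG14329 and CG34180, at 0.07, 0.08 and 0.11, and for tau Frq2, sr and CG8248, at 0.12, 0.14 and 0.15. The 3 nearest to Ank2 were at or near 0 in the CC libraries, as CG8607 at 0, 1.34 and 0 against 5.12 in PRs, so that their likeness rests on the added constant of 4 units. Near Rbp9 and futsch, cac and onecut also belong to the list of genes of nearly all neurons, and eys to the photoreceptor markers. Among themselves the 6 genes were farther apart, from 1.16 for Ank2 and tau to 3.47 for Rbp9 and fne. Over 4 libraries such likeness is a description only.

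Reads of overlapping genes could enter the counts of the 6 genes. In the reference annotation the exons of elav share 673 bases with arg on the opposite strand and 2994 bases with the noncoding RNA lncRNA:enrr on the same strand, and those of futsch share 1186 bases with the gustatory receptor gene Gr2a. In these libraries arg held at most 17.7 units and Gr2a at most 6.36, far below the 429 units or more of elav and the 95.8 or more of futsch. Rbp9 shares 142 bases with Ts, which was at 31.0 units in larval CCs beside the 52.0 of Rbp9 and at most 2.54 in the other libraries. Ank2 shares 5874 bases with CG44195 on the same strand, and for CG44195 and lncRNA:enrr no row was matched, so their levels are not given. The 90 bases that tau shares with mir-1001 belong to a gene at 9.13 units or less. The low larval level of Rbp9 thus stood beside a partner of similar size, and without strand the reads of the shared bases cannot be told apart.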

How the data were processed

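Cells of 4 sorted populations were profiled by RNA-seq, 1 library each. RNA was extracted with the RNeasy Micro kit, amplified with the NuGEN Ovation V2 system and sequenced as Nextera libraries, with no statement that strand was kept. TopHat2 2.0 and Bowtie 1.0 are the aligners in the submitters' notes. Reads mapped to dm3 were summed by gene, and the authors deposited the TMM-normalized counts as log2 values. Amplification and a count undivided by length affect comparisons between genes more than those of 1 gene between libraries. From 14959 entries, 24 repeats, all at 0, were left out.

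Differences of log2(value + 4) were taken over all 14935 genes in 5 comparisons, with no test across replicates. Low values below 30 units lay within 0.02 of a multiple of the estimated step in 38.4% to 65.1% of cases. Since that is too few to restore whole counts, count models were not used. The 32 units of the rule are an estimated 19.3 to 53.6 reads. The reference annotation (Ensembl release 115) is on another build than the files, so it gave lengths and overlaps only and no coordinates. The coding length is the longest of each gene there, in place of a RefSeq protein length, and no sequence is printed. Lists are given by their counts and by a median of the genes that reached 8 units in either library. The genes and lists were chosen with earlier results of these data known. Of 165 list symbols 162 matched. Named genes were the 6, the 3 nearest profiles of each, up to 4 per list with the largest adult CC and PR difference at 32 units or more, markers at 0 and Fas3 as a gating gene. Others, such as Ank, phyl, Syt1, para, Pdh, retinin and betaTub60D, were named after their values were seen. Alternatives were added constants of 1 and 16 units, 2 other scalings, no floor, a floor of 256 units and an 8-fold rule, and, chosen after seeing the data, the counts without futsch, bristle markers without ase and shares per kb of exonic length. The rule was tested on simulated data that held counting noise only. That test says nothing on differences between sorts, amplifications or animals. A second adult CC library and whole-fly data are not used here. Calculations used Python 3.11.15, numpy 2.4.6, pandas 2.3.3 and matplotlib 3.10.9.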

Additional observations from a re-analysis of the deposited data

How the results depend on the processing

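With 1 library per condition, leaving out a replicate was not possible, and the limits are those of single libraries, of an estimated depth and of a scaling that the 4 libraries share with data not used here. No paired analysis was possible because each group has 1 library. Of 210 values of the 6 genes under 7 alternatives, 186 kept their direction and their side of the rule, 12 fell short of it, 5 newly passed it and 7 changed sign, and the causes were not tested. With equal library totals elav was above PRs by 0.69 in larval and 0.50 in pupal CCs, and from larval to pupal CCs elav differed by -0.18 and futsch by -0.12. With median ratios set to 0, tau differed by -0.0067 between pupal CCs and PRs, and from larval to pupal CCs elav differed by -0.19 and futsch by -0.13. Counts of the 6 genes moved with equal library totals to 2 lower in larval and 1 lower in pupal CCs against PRs, with the higher floor on low values to 0 higher in larval CCs, and with an 8-fold rule to 0 higher and 2 lower in larval CCs, 0 lower in pupal CCs, and 1 higher from larval to pupal CCs. Counts over all genes moved more. Given as adult CCs against PRs, larval CCs against PRs, pupal CCs against PRs, pupal against larval CCs and adult against pupal CCs, the higher floor called 602, 390, 409, 169 and 589 genes higher and 333, 572, 420, 48 and 294 lower. An 8-fold rule called 681, 640, 809, 366 and 509 higher and 423, 727, 383, 43 and 481 lower. An added constant of 16 units called 920, 816, 901 and 399 higher in the first 4 and 93 and 596 lower in the last 2. With no floor 2207 genes were higher in pupal CCs than in PRs and 1262 higher in pupal than in larval CCs. Equal library totals called 2210 higher and 828 lower in larval CCs against PRs, 2129 and 549 in pupal CCs against PRs, 965 and 809 in adult CCs against PRs and 572 and 1565 in adult against pupal CCs. The median ratio set to 0 called 1006 higher and 1031 lower in adult CCs and 1174 and 1151 in pupal CCs against PRs. Of the shares within the Elav family, 6 of 24 moved by over 1.5 times between ways of dividing by length, and elav led in every CC library and Rbp9 in PRs in all of them. The lead of elav in pupal CCs was narrow per kb of exonic length, at 39.8% against 38.2% for Rbp9. List counts moved in 184 of 1470 cases and list medians in 75 of 735.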
